A study of Mus musculus with 3 samples.

Results

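Genes of the Bcl2 family set the threshold for cell death at the mitochondrion. A set of 10 named members was followed here: the pro-survival genes Bcl2, Bcl2l1 (Bcl-xL) and Mcl1, the effector genes Bax and Bak1, and the BH3-only genes Bcl2l11 (Bim), Bbc3 (Puma), Bad, Bid and Bmf. They were found by symbol, and all 10 were present among the 50600 genes of the count tables. The libraries were RNA-seq, labelled as of total RNA, from primary mouse cells of strain C57BL/6NJ labelled T-helper 1 (Th1), a kind of CD4 T cell known for making interferon gamma, in 1 group of 3 libraries (biological replicates 1, 2 and 3). The replicates came from separate biosamples that share 1 donor identifier, and the labels give neither age nor sex. The labels point to a differentiation protocol for CD4 T cells, and no genotype, added treatment or second group is named. The assay is labelled total RNA-seq, whereas the name of the linked library protocol speaks of polyA+ RNA, and which was used is not settled here. The counting commands kept in the tables speak of 0 hours. With 1 group, comparisons were made between genes within a library and between the 3 libraries. Tests over libraries measure the spread between these 3 samples, which may in part be technical.

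The label was only partly matched by marker genes. All 8 T cell markers, such as Cd3e and Cd4, were at 1 TPM (a transcript level scaled to gene length and to the library) or more in every library. Their summed level was 2232, 3723 and 976 TPM in replicates 1, 2 and 3. Of 5 Th1 markers 2 reached 1 TPM in every library: Stat4, at a mean of 14.8 TPM, and Il12rb2, at 14.3 TPM, whose exons overlap those of an opposite-strand gene. The defining genes Tbx21 (T-bet) and Ifng had 1, 3 and 0 counts each, and Cxcr3 had 0 in all libraries. Of 8 B cell markers Ighm and Cd79a passed 1 TPM in every library, with Ms4a1, Igkc, Pax5 and Ebf1 at 0, and the list summed to 271, 401 and 123 TPM. Myeloid markers summed to 83.7, 70.0 and 97.0 TPM, nearly all of it from Csf1r, which shares exonic bases with an opposite-strand gene. Cd14, S100a8, S100a9 and Adgre1 were at 0. NK markers summed to 6.66, 10.2 and 3.30 TPM, erythroid and platelet markers to 10.2, 7.86 and 8.08 TPM, and stromal markers to 46.9, 72.9 and 22.2 TPM. In these bulk libraries, fewer cells of a type and less RNA per cell cannot be told apart.

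Replicate 3 stood apart from the other libraries. Total counts were 3647366, 4305077 and 2510319 in replicates 1, 2 and 3, of which the 10 genes took 2046, 2985 and 1138. Genes whose exons overlap exons of an opposite-strand gene held 63.1, 53.8 and 76.5% of all counts. The share of genes that lie more than 5 kb from any opposite-strand gene was 15.4, 19.9 and 9.05%. Only fragments whose first read lay on a gene's strand entered its count, and the library kit is not given in the sources used here. Should that kit yield first reads of the other orientation, the counts and levels of every gene, members without a neighbour included, would stem from antisense fragments. Whether the strand setting fits these libraries, and whether counts of overlapping genes come from their own transcripts, was not tested. Each member is therefore given with its opposite-strand neighbour.

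In a living cell the pro-survival proteins hold the effectors Bax and Bak in check and bind BH3-only proteins. BH3-only proteins respond to upstream stress such as cytokine withdrawal or DNA damage, and neutralise the pro-survival proteins or activate the effectors directly. Once active, Bax and Bak permeabilise the outer mitochondrial membrane and release cytochrome c, which drives caspase activation. In T cells, Bcl2 and Mcl1 sustain naive and memory cells downstream of IL-7 and related cytokines, and Bim is a main mediator of their deletion.

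The members lie in different annotation contexts (coordinates from the deposited tables, mm10, GENCODE M13). Mcl1 (chr3:95658788-95663176, plus strand), Bcl2l11 (chr2:128126038-128162547, plus), Bcl2l1 (chr2:152780668-152831728, minus) and Bmf (chr2:118528757-118549687, minus) had no opposite-strand gene within 5 kb. Bax (chr7:45461697-45466898, minus) lay 1396 bases from the opposite-strand transcript Gm10252, which had 4654, 4749 and 5432 counts. Bax also shared 192 exonic bases with Gm45808 on its own strand, a gene with 0 counts, and fragments on such shared bases are not counted by default. Bbc3 (chr7:16308393-16318205, plus) lay 2028 bases from Sae1, which encodes a subunit of the SUMO-activating enzyme and had 139, 178 and 54 counts.

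The other 4 members shared exonic bases with an opposite-strand gene. Bcl2 (chr1:106538178-106714274, minus) shared 558 bases, 6.09% of its exonic length, with the antisense transcript D630008O14Rik, which had 1768, 1372 and 1562 counts. Bid (chr6:120891930-120916853, minus) shared 628 bases, 17.7% of its exonic length, with Bcl2l13, another Bcl2 family gene, which had 122, 189 and 62 counts. Bad (chr19:6941861-6951898, plus) shared 517 bases, 25.8% of its exonic length, with Gpr137, a gene with 60, 63 and 75 counts. Bak1 (chr17:27019810-27029009, minus) shared 357 bases, 14.8% of its exonic length, with Ggnbp1, which had 741, 698 and 760 counts. For all members, both unshared and shared exons enter the level.

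Promoter sequences were read from RefSeq (build GRCm38.p6) as the 250 bases before the farthest upstream start of each gene, for which all 10 members were matched among 27025 promoters. Those of Mcl1 (chr3:95658471-95658720, plus strand), Bcl2l11 (chr2:128125788-128126037, plus) and Bid (chr6:120916825-120917074, minus) are shown. They belong to the pro-survival gene with the highest level, to a BH3-only gene that kept a steady ratio to it, and to a BH3-only gene with another pattern across the libraries. Capitals mark matches, on either strand, to the GC box with the letters GGGCGG and to the box with the letters CCAAT. They also mark the FOXO motif with the letters GTAAACA.
Mcl1: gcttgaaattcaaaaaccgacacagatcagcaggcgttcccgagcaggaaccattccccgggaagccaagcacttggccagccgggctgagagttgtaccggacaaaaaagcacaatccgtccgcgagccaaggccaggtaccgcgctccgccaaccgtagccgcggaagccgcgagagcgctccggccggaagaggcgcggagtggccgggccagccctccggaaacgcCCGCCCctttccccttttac
Bcl2l11: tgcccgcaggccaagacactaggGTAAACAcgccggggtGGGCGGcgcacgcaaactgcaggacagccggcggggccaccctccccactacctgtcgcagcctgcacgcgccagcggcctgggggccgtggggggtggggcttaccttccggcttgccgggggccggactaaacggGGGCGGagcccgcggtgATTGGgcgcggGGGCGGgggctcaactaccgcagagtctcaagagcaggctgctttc
Bid: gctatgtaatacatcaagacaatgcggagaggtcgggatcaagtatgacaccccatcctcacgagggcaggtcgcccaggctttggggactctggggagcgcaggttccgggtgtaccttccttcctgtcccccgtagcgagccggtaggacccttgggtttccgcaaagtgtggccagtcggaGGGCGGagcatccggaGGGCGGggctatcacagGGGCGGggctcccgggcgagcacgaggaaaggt
The GC box, which Sp1 and related factors bind, matched in 7 of 10 member promoters and in 33.0% of all promoters. The CCAAT box matched in Bcl2l11 and Bmf and in 34.5% of all. The FOXO motif, known from the forkhead factors that act on Bcl2l11 after cytokine withdrawal, matched in Bcl2l11 alone of the 10 and in 3.06% of all promoters. Its first base lay 227 bases before the start. The TATA box (TATAAA, 13% of all promoters) and the STAT motif (TTCNNNGAA, 7.14%) matched in 0 of 10 members, and the core of the cyclic AMP response element (TGACG, 17.8%) in Bbc3, Bcl2 and Bmf. These motifs were searched on both strands, a GC box can overlap a neighbouring GC box, and a match is a description of letters and not of binding. RefSeq starts can differ from those of the counted genes. For Bak1 and Bbc3 the 250 bases lie within the gene as counted, and for Bid they do so in part. GC content was 64.4% for Mcl1, 72% for Bcl2l11 and 63.6% for Bid, beside a median of 52.0% over all promoters.

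Of the pro-survival genes, Mcl1, whose short-lived protein binds Bim, Puma and Bak, was the highest of the 10 members on the TPM scale. Its level was 122, 212 and 62.3 TPM in replicates 1, 2 and 3 (132 ± 75.2, SD, n = 3), from 785, 1417 and 318 counts. Replicate 2 was the highest library and replicate 3 the lowest, 3.40-fold apart. Of the protein-coding genes that passed the filter on low counts, 94.4% had a lower mean level than Mcl1. Bcl2, the founding pro-survival member, had 31.4, 37.9 and 13.9 TPM (27.7 ± 12.4, n = 3), from 541, 680 and 190 counts, with the same order of libraries as Mcl1. The antisense transcript D630008O14Rik within the Bcl2 gene did not follow this order, as its counts above show. Bcl2l1, whose protein Bcl-xL is induced in activated T cells, had 2.78, 4.34 and 1.61 TPM (2.91 ± 1.37, n = 3) from only 24, 39 and 11 counts. It again had its highest level in replicate 2 and its lowest in replicate 3, and lay above 6.86% of the tested protein-coding genes.

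**Figure D1:**
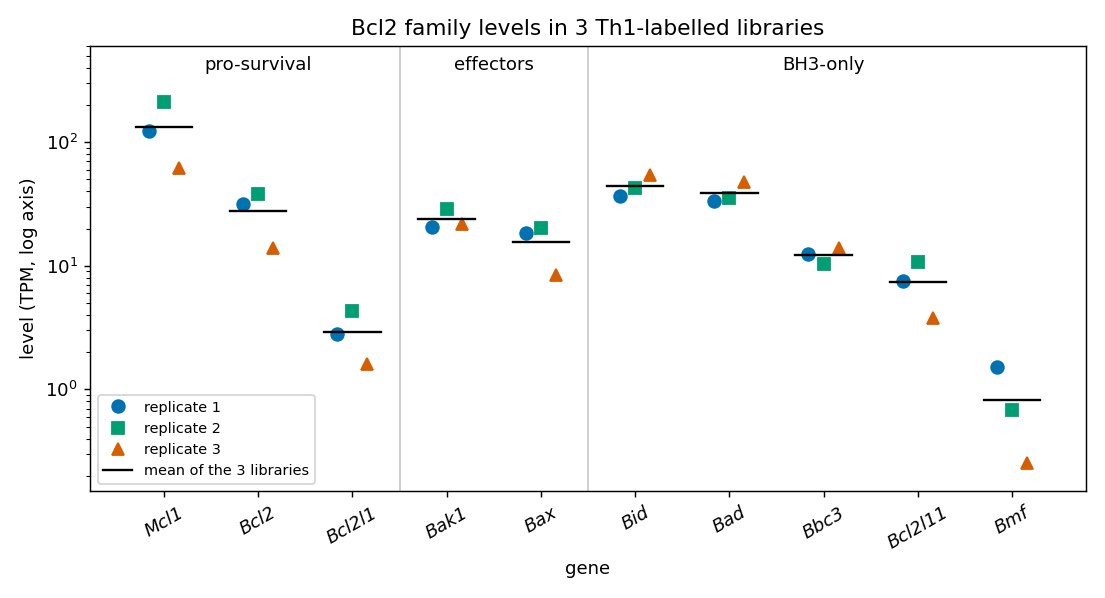
Level of each of the 10 Bcl2 family genes (TPM, log axis) in the 3 libraries, grouped by role, with points for libraries and a mark for their mean. Mcl1 sits highest at a mean of 132 TPM and Bmf lowest at 0.817 TPM, and the replicate 3 point is the lowest for Mcl1, Bcl2, Bcl2l1, Bax, Bcl2l11 and Bmf but the highest for Bid, Bad and Bbc3.

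Both effectors lay below Mcl1 in every library. Bak1, which encodes an effector resident in the outer mitochondrial membrane, had 20.5, 28.6 and 22.0 TPM (23.7 ± 4.32, n = 3) from 93, 135 and 79 counts. Its 3 libraries stood close together, with replicate 2 highest. Bax, whose protein shuttles between cytosol and mitochondria, had 18.5, 20.1 and 8.49 TPM (15.7 ± 6.29, n = 3) from 55, 62 and 20 counts. Replicates 1 and 2 were close and replicate 3 was well below them.

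The BH3-only genes were not alike. Bid, whose protein is cleaved by caspase-8 and so links death receptors to the mitochondrion, had 36.4, 42.6 and 53.7 TPM (44.2 ± 8.80, n = 3), from 243, 296 and 285 counts. Bad, which is held inactive by phosphorylation and 14-3-3 proteins, had 33.4, 35.1 and 48.0 TPM (38.8 ± 8.01, n = 3), from 126, 138 and 144 counts. For both genes replicate 3, the library with the fewest counts in all, held the highest level. Both share exonic bases with an opposite-strand gene, and Bcl2l13, the gene opposite Bid, had its lowest count in replicate 3.

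Bbc3, a p53 target that encodes Puma, had 12.5, 10.3 and 13.9 TPM (12.2 ± 1.78, n = 3), from 50, 43 and 44 counts, with replicate 3 the highest by a small margin. Bcl2l11, which encodes Bim, had 7.54, 10.7 and 3.75 TPM (7.32 ± 3.47, n = 3) from 114, 168 and 45 counts. Here replicate 2 was highest and replicate 3 lowest, as for the pro-survival genes. Bmf, a BH3-only gene linked to the cytoskeleton, had 1.52, 0.680 and 0.255 TPM (0.817 ± 0.642, n = 3) from 15, 7 and 2 counts, and it alone among the 10 did not pass the filter on low counts. At Bmf, 3 counts are worth 0.303, 0.291 and 0.382 TPM, so the value in replicate 3 lies below what 3 counts would give.

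At 1 TPM or more in all 3 libraries stood 9 of the 10 members, against 41.6% of 21764 protein-coding genes. The median level over the 10 members was 19.7 TPM, beside 0.603 TPM over all protein-coding genes and 16.5 TPM over the 10662 genes that passed the filter.

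By mean TPM the order was Mcl1, Bid, Bad, Bcl2, Bak1, Bax, Bbc3, Bcl2l11, Bcl2l1 and Bmf. Of its 9 neighbouring pairs, 5 had the same direction in all 3 libraries and 4 had a mean log2 ratio within 1 SD of 0. Mcl1 lay above Bid by a mean log2 ratio of 1.42 ± 1.09 (SD, n = 3), but the margin fell to 1.16-fold in replicate 3 (95% Clopper-Pearson interval 0.985 to 1.36), against 3.36-fold and 4.97-fold in replicates 1 and 2. Bad and Bcl2 (0.59 ± 1.04), Bcl2 and Bak1 (0.12 ± 0.68), Bax and Bbc3 (0.27 ± 0.86) and Bbc3 and Bcl2l11 (0.84 ± 0.96) changed places between libraries. These 4 pairs of neighbours thus did not differ beyond their spread. Bid exceeded Bad by 0.19 ± 0.08, yet within each library the counting interval of that ratio included 1. Bak1 over Bax (0.67 ± 0.62), Bcl2l11 over Bcl2l1 (1.29 ± 0.12) and Bcl2l1 over Bmf (1.87 ± 0.91) kept one direction in all libraries. Since the order was set by the mean over the same libraries, these directions are a description, with no test.

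Ratios between chosen pairs of members set pro-survival genes against their binding partners. Mcl1 exceeded Bcl2l11 16.2-fold, 19.8-fold and 16.6-fold in counts per base in replicates 1, 2 and 3. The 95% intervals (13.3 to 19.9, 16.9 to 23.4 and 12.1 to 23.2) overlapped one another. The mean log2 ratio was 4.10 ± 0.17 (n = 3). In TPM, Mcl1 and Bcl2l11 spanned 3.40-fold and 2.85-fold between libraries, but these spans depend on the scaling. With counts scaled on genes farther than 5 kb from any on the opposite strand, Mcl1 had 195.8, 223.5 and 205.0 CPM (depth-scaled counts). Bcl2l11 then had 28.4, 26.5 and 29.0 CPM. Bcl2 exceeded Bcl2l11, its main BH3-only partner in lymphocytes, 4.16-fold, 3.55-fold and 3.70-fold, a mean log2 ratio of 1.91 ± 0.12. Mcl1 exceeded Bcl2 3.89-fold, 5.58-fold and 4.48-fold (2.20 ± 0.26), and Bcl2 exceeded Bcl2l1 by 3.19 ± 0.22 on the log2 scale. For Mcl1 over Bcl2, the intervals of replicate 1 (3.48 to 4.35) and replicate 2 (5.09 to 6.13) did not overlap. Among the 3 pro-survival genes the order Mcl1, Bcl2, Bcl2l1 therefore held in every library.

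Other pairs were far less steady. Bcl2l11 stood at 0.603, 1.03 and 0.271 of Bbc3 in counts per base, and the intervals for replicate 2 (0.736 to 1.48) and replicate 3 (0.175 to 0.420) did not overlap. Its mean log2 ratio was -0.84 ± 0.96, with Bcl2l11 higher in 1 of 3 libraries. Bax stood at 0.903, 0.701 and 0.387 of Bak1, lower in all 3 libraries (-0.67 ± 0.62). Bcl2l11 exceeded Bmf by 3.16 ± 0.81, and in summed counts per base 8.91-fold (95% interval 5.89 to 14.1). Pmaip1 encodes Noxa, the BH3-only protein that binds Mcl1 selectively, and had 0, 3 and 0 counts. Mcl1 exceeded Pmaip1 650-fold in summed counts per base, with a 95% interval from 222 to 3155. Of the 9 chosen pairs, 8 had one direction in all 3 libraries, each with p = 0.25, the smallest that the exact two-sided sign-flip permutation test can give over 3 libraries (Benjamini-Hochberg adjusted p = 0.281 over 9 pairs), and Bcl2l11 against Bbc3 had p = 0.5.

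After the values were seen, a further 2 pairs were read. Bcl2 exceeded Bax 1.69-fold, 1.89-fold and 1.64-fold (mean log2 ratio 0.79 ± 0.11), with an SD close to that of Bcl2 to Bcl2l11. Bid exceeded Bcl2l11 4.82-fold, 3.98-fold and 14.3-fold (2.68 ± 0.98), and the interval of replicate 3 (10.4 to 20.1) lay above those of replicates 1 (3.84 to 6.08) and 2 (3.29 to 4.84).

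**Figure D2:**
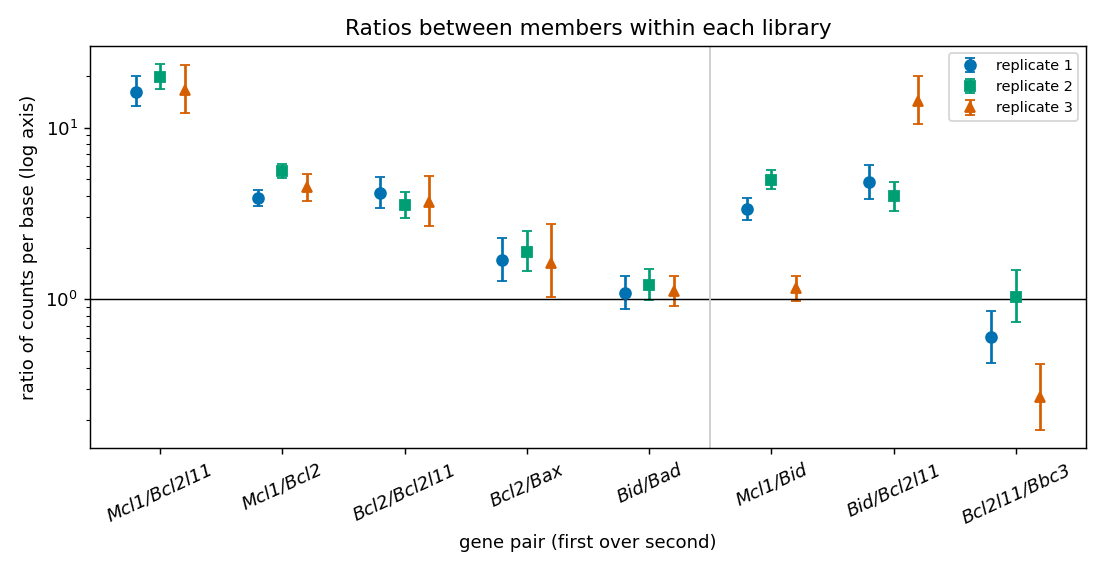
Ratio of counts per base between the genes of 8 pairs (log axis) in each library, with bars for the 95% Clopper-Pearson interval and a line at a ratio of 1. Left of the grey divider the 3 libraries stay closer together, as for Mcl1/Bcl2l11 at 16.2 to 19.8. Even so, for Mcl1/Bcl2 the intervals of replicate 1 (3.48 to 4.35) and replicate 2 (5.09 to 6.13) do not overlap. Right of the divider replicate 3 departs, as for Mcl1/Bid at 1.16.

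The members fell apart by how their counts moved from replicate 2 to replicate 3. The raw count ratio (log2, replicate 3 over replicate 2) was -2.16 for Mcl1, -1.84 for Bcl2, -1.83 for Bcl2l1, -1.9 for Bcl2l11, -1.63 for Bax and -1.81 for Bmf. For Bid it was -0.05, for Bad 0.06 and for Bbc3 0.03, so these genes had about equal counts in both libraries although replicate 3 held far fewer counts in total. Bak1 lay between, at -0.77. Of the genes near 0, Bid and Bad overlap opposite-strand exons. Raw ratios over all genes were not computed, so this split describes the members only and is not a trait of their roles. In log2 CPM scaled to total counts, the median difference between replicates 3 and 2 over all tested genes was -0.85. A lower count in replicate 3 was thus common.

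Variation between the libraries was tested against counting error with a Poisson chi-square test on counts scaled with TMM factors (trimmed mean of M-values), adjusted over all 10662 genes. It compares 3 libraries and not conditions. Of the 10 members, 9 were tested and 6 were called at an adjusted p of 0.05, beside 62.4% of all genes tested. A call says that the 3 libraries differ, and the sign of replicate 3 minus replicate 2 is given beside it as a description. On this scaling the called members with replicate 3 below replicate 2 were Mcl1 (difference in log2 CPM, depth-scaled counts, of -0.61, adjusted p = 1.68e-13) and Bcl2 (-0.29, adjusted p = 0.00127). These are 2 members, beside 29.2% of all genes. Those with replicate 3 above replicate 2 were Bid (1.48, adjusted p = 2.17e-41), Bad (1.59, adjusted p = 1.20e-22), Bbc3 (1.52, adjusted p = 2.53e-06) and Bak1 (0.76, adjusted p = 3.14e-04), or 4 members, beside 33.2% of genes. Bax (-0.08, adjusted p = 0.432), Bcl2l11 (-0.35, adjusted p = 0.400) and Bcl2l1 (-0.26, adjusted p = 0.819) did not pass the test, the last with 11 counts in replicate 3.

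The sign of this difference depended on the scaling. With TMM factors taken only from genes farther than 5 kb from any on the opposite strand, the median difference between replicates 3 and 2 over all tested genes moved from -0.11 to 0.37. Calls then numbered 6 again, beside 53.3% of genes. Mcl1 was the 1 called member with replicate 3 below replicate 2 (-0.12, adjusted p = 0.0201), beside 8.59% of genes. Its values were then 195.8, 223.5 and 205.0 CPM, so that replicate 1 and not replicate 3 was the lowest. The 5 called with replicate 3 above replicate 2, beside 44.7% of genes, were Bid (1.96), Bad (2.07), Bbc3 (1.99), Bak1 (1.24) and Bcl2 (0.19, adjusted p = 8.28e-04). Bcl2 had 135.0, 107.3 and 122.5 CPM, with replicate 1 highest. It changed sign with the shift of all genes, so its place relative to their median stayed about the same. Scaled to total counts alone, which moved the median of all genes to -0.85, Bid (0.72), Bad (0.83) and Bbc3 (0.78) were again higher in replicate 3 than in replicate 2, Mcl1 (-1.37) and Bcl2 (-1.06) lower, and Bak1 was no longer called (adjusted p = 0.268). Bax (-0.82, adjusted p = 0.0429) and Bcl2l11 (-1.1, adjusted p = 2.28e-05) were then called, with replicate 3 below replicate 2. All genes then split into 58.4% called lower and 24.1% called higher.

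The annotation class moved with these differences over all genes. With TMM over all genes, the median log2 difference between replicates 3 and 2 was 1.00 for 4418 genes with opposite-strand exon overlap, -0.28 for 3644 genes near one (5 kb or less, without overlap), and -0.45 for the 2600 genes farther away. In the last class 8.23% of genes were called with replicate 3 above replicate 2 and 44.5% with it below. Bid (1.48) and Bad (1.59) lay near the upper quartile of the overlap class (1.65), and Bak1 (0.76) near its median. Bcl2 also overlaps opposite-strand exons, but at -0.29 it lay below that class's lower quartile of -0.19. Its shared part, 6.09% of its exonic length, was the smallest among the overlapping members. Bbc3 shares no exonic base with an opposite-strand gene and at 1.52 lay above the upper quartile of its class (0.33). Mcl1 at -0.61 lay within the quartiles of its class (-0.82 to -0.08). The part of overlapping or nearby transcripts in these differences was not tested. In TPM, the summed T cell, B cell, NK and stromal markers had the same order of libraries as Mcl1, Bcl2, Bcl2l1, Bcl2l11 and Bax. The sum over all protein-coding genes had this order too (422287, 533166 and 349727 TPM in replicates 1, 2 and 3), so it is not particular to these genes. The myeloid sum was highest in replicate 3, and the erythroid and platelet sum in replicate 1. The B cell sum was mostly Ighm (237, 352 and 73.4 TPM), whereas Cd79a had 33.2, 48.3 and 49.6 TPM. The NK and stromal lists each had only 1 gene at 1 TPM or more in all libraries. The part of these cell types was not tested either.

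**Figure D3:**
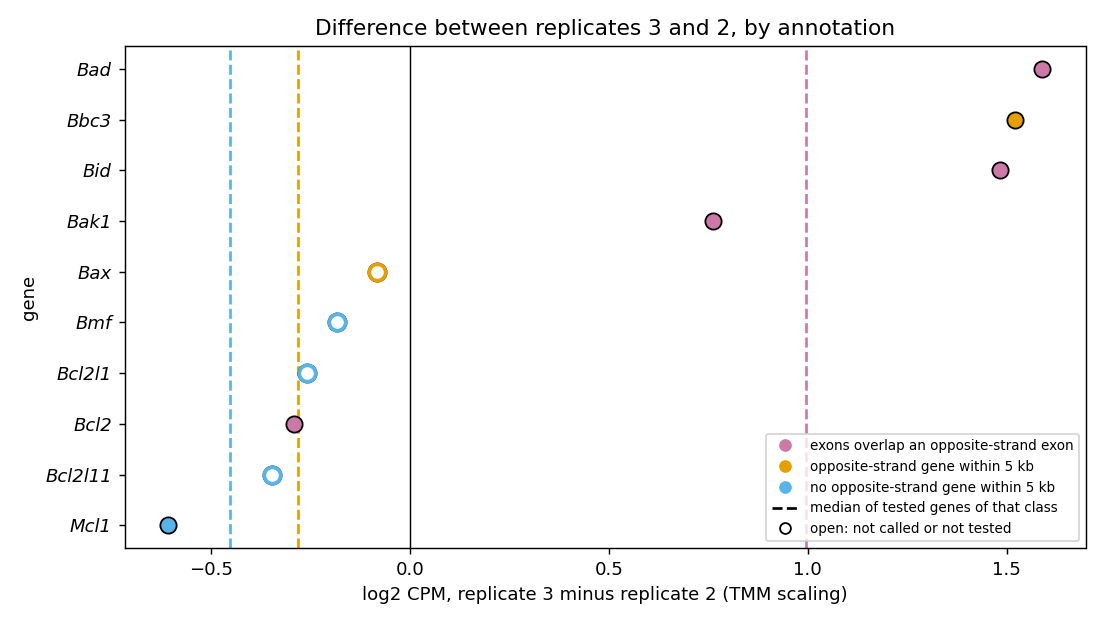
Difference in log2 CPM between replicate 3 and replicate 2 (TMM scaling) for each member, coloured by its opposite-strand annotation, with dashed lines at the median of all tested genes in each annotation class. Filled points were called, and Bad, Bbc3 and Bid lie at 1.48 to 1.59 while Mcl1 lies lowest at -0.61.

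Replicate 3 carried most of the calls. Without replicate 3, Mcl1 was the 1 member still called (adjusted p = 6.23e-07, Poisson chi-square test), with replicate 2 above replicate 1 by a log2 difference of 0.35, and 28.1% of all genes tested were called. Without replicate 1, 5 members were called, beside 60.8% of all genes tested, since Bcl2 no longer passed (adjusted p = 0.0615). Without replicate 2 there were 6, beside 49.7% of genes.

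Likeness of pattern was described as the Euclidean distance between log2(CPM + 0.5) values centred on each gene's mean over the 3 libraries, taking each member with at least 100 summed counts and finding the nearest of all other members. Bad and Bid were the closest members (0.108), followed by Bcl2 and Bax (0.152). Bcl2l11 lay nearest to Bcl2l1 (0.154), which itself had only 74 summed counts, and Mcl1 nearest to Bcl2l11 (0.227). Bbc3 lay nearest to Bad (0.294), and Bak1 lay nearest to Bid at a distance of 0.518. The 3 genes most like Mcl1 were Hid1 (0.00377), Wars (0.00529) and Snhg5 (0.0106), and 286 of 9214 genes with at least 100 counts lay within 0.1 of it. These 286 genes lay closer to Mcl1 than Bcl2l11 did, so a steady ratio to Mcl1 was not particular to Bcl2l11. With only 3 libraries, short distances are common.

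Summed by role, pro-survival transcripts reached 156, 254 and 77.7 TPM in replicates 1, 2 and 3, effectors 39.1, 48.7 and 30.5 TPM, and BH3-only genes 91.3, 99.3 and 119.6 TPM. On the TPM scale, the pro-survival sum was the one that moved most, and the BH3-only sum was highest where the pro-survival sum was lowest. How far members move between libraries depends on the scaling. With TMM factors from genes farther than 5 kb from any on the opposite strand, Mcl1 had 195.8, 223.5 and 205.0 CPM. Bid then had 60.6, 46.7 and 183.7 CPM. As a share of all 10 genes, pro-survival transcripts held 54.5, 63.2 and 34.1%, BH3-only transcripts 31.9, 24.7 and 52.5%, and effectors 13.6, 12.1 and 13.4%. Mcl1 alone held 42.6, 52.7 and 27.3%, and Bid 12.7, 10.6 and 23.6%.

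The pro-survival sum exceeded the effector sum in every library, with log2 ratios of 2.00, 2.38 and 1.35 (mean 1.91 ± 0.52, n = 3, exact sign-flip permutation p = 0.25, the smallest possible). Against the BH3-only sum the log2 ratios were 0.77, 1.35 and -0.62 (0.50 ± 1.02, exact sign-flip permutation p = 0.5), positive in 2 of 3 libraries. Without the 4 members that overlap opposite-strand exons, that ratio was 2.53, 3.32 and 1.84 (2.56 ± 0.74), positive in all 3 libraries. In this reduced form the pro-survival sum is Mcl1 and Bcl2l1, and the BH3-only sum is Bcl2l11, Bbc3 and Bmf. In replicate 3 it stood at 17.9 TPM, against 119.6 TPM with Bid and Bad. With all 10 members, the mean log2 ratio was 1.06 without replicate 3 and 0.077 without replicate 2. Sums of transcripts are not sums of protein, and several members are regulated after translation.

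**Figure D4:**
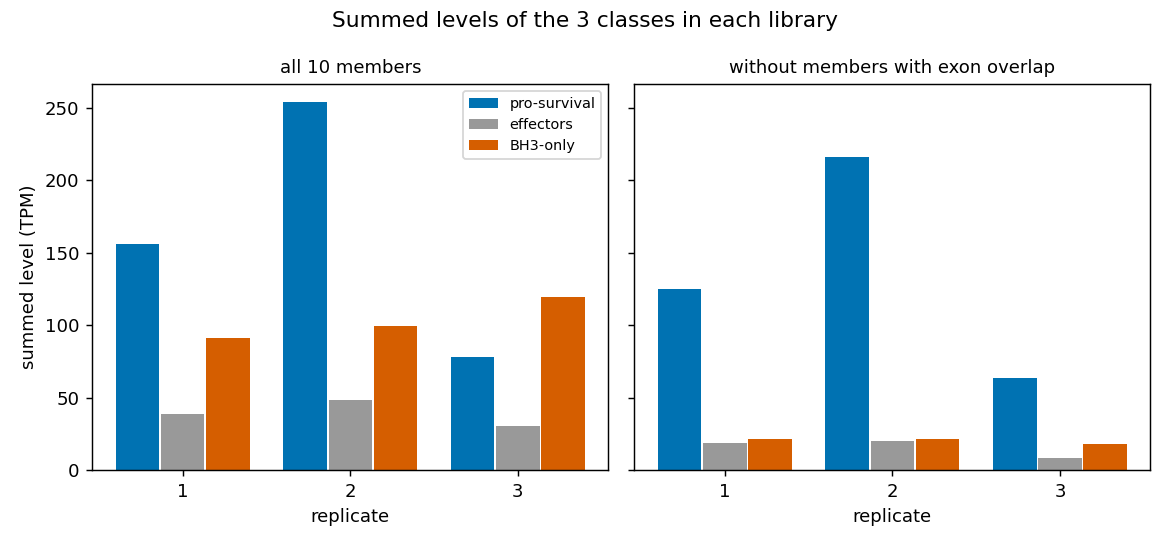
Summed TPM of pro-survival, effector and BH3-only members in each library, for all 10 members and without the 4 members with opposite-strand exon overlap. In replicate 3 the BH3-only sum of 119.6 TPM exceeds the pro-survival sum of 77.7 TPM with all members, and falls to 17.9 against 63.9 TPM without the 4.

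Other genes of the pathway were read from 6 lists. Called genes are counted below by whether replicate 3 lay below or above replicate 2, to be read beside 29.2% (below) and 33.2% (above) of all genes with TMM over all genes. With the factors from genes far from the opposite strand's genes, the shares over all genes were 8.59 and 44.7%, since that scaling shifts every gene alike. Of 15 other Bcl2 family genes, 5 were at 1 TPM or more in all libraries, with a median of 0.736 TPM. Bcl2a1a, Bcl2l10 and Hrk had 0 counts in all libraries. Bcl2a1a has near-identical copies whose shared fragments are not counted by default, so its 0 is uncertain. The highest was Bcl2l12, at 214 ± 32.5 TPM, which overlaps exons of Irf3 and Gm15545 on the other strand. Next came the mitophagy receptor Bnip3l at 23.3 ± 13.3 TPM and Bcl2l13 at 7.44 ± 3.04 TPM. Of 3 tested, 2 were called, Bnip3l with replicate 3 below replicate 2 and Bcl2l12 with it above, and under the other TMM factors Bcl2l12 alone was called.

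Downstream of the mitochondrion, 13 of 14 apoptosome and caspase genes were at 1 TPM or more in every library, with a median of 7.07 TPM. Of 13 tested, 5 were called with replicate 3 below replicate 2 and 1, Endog, with it above, and under the other TMM factors 2 below and 3 above. The highest was the mitochondrial nuclease gene Endog (264 ± 68.5 TPM, with opposite-strand overlap). Next came the outer membrane channel genes Vdac2 (23.0 ± 12.0 TPM, also with such overlap) and Vdac1 (22.9 ± 15.6 TPM). Of 9 caspase inhibitors and their antagonists, 7 passed 1 TPM. Of 7 tested, 3 were called with replicate 3 below replicate 2 and 2 (Htra2 and Septin4) with it above, and under the other factors 2 below and 2 above. The serine protease gene Htra2 led them at 354 ± 60.7 TPM, again with opposite-strand overlap. It was followed by Birc6 (21.8 ± 12.2 TPM, also with such overlap) and Birc2 (20.3 ± 11 TPM), both inhibitors of apoptosis.

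Of 12 death receptor genes, 10 passed 1 TPM. Of 10 tested, 4 were called with replicate 3 below replicate 2 and 1 with it above, and under the other factors 1 below and 3 above. Tnfrsf1a, among those below, had nearly equal values in replicates 2 and 3 (26.4 and 26.2 CPM) and a lower one in replicate 1 (16.6 CPM). Casp8, the initiator caspase that cleaves Bid, was at 93.3, 140.4 and 44.6 TPM (92.8 ± 47.9). It had the order of libraries seen for Mcl1 and for the sum of all protein-coding genes, while Bid was highest in replicate 3. The receptor Fas was at 22.7 ± 10.5 TPM. Tnfrsf10b, the mouse TRAIL receptor, was at 21.9 ± 3.48 TPM and was the 1 called with replicate 3 above replicate 2 (1.5 on the log2 scale).

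Of the upstream regulators, 25 of 26 genes were at 1 TPM or more in every library, with a median of 27.3 TPM. Il7r, the receptor chain for the cytokine that sustains Bcl2 in T cells, was at 205 ± 107 TPM, Jak1, the kinase it signals through, at 167 ± 89.3 TPM, and Gsk3a, a kinase that marks Mcl1 for degradation, at 219 ± 28.0 TPM. Jak1, Gsk3a and Ddit3, a further gene of this list, overlap opposite-strand exons. Of 25 tested, 16 were called with replicate 3 below replicate 2 and 2, Ddit3 and Gsk3a, with it above, and under the other factors 5 below and 3 above. Of 16 partner and turnover genes, 15 passed 1 TPM, led by Tpt1 (1627 ± 850 TPM), whose product binds Mcl1, the Bcl2-binding co-chaperone Bag1 (87.9 ± 34.6 TPM) and the 14-3-3 gene Ywhab (62.2 ± 28.2 TPM). Of 15 tested, 8 were called with replicate 3 below replicate 2 and 2, Dynll1 and Trim17 (the latter with opposite-strand overlap), with it above. Under the other factors 2 lay below and 7 above, as the shares over all genes also moved.

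Over the 9 tested members the median log2 difference between replicates 3 and 2 was -0.08 (TMM), beside -0.27 over all tested protein-coding genes, -0.53 over upstream regulators and -0.38 over partner and turnover genes. These medians are not matched for annotation class. Opposite-strand exon overlap was found for 4 of 10 members, 6 of 26 upstream regulators and 2 of 16 partner and turnover genes.

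**Figure D5:**
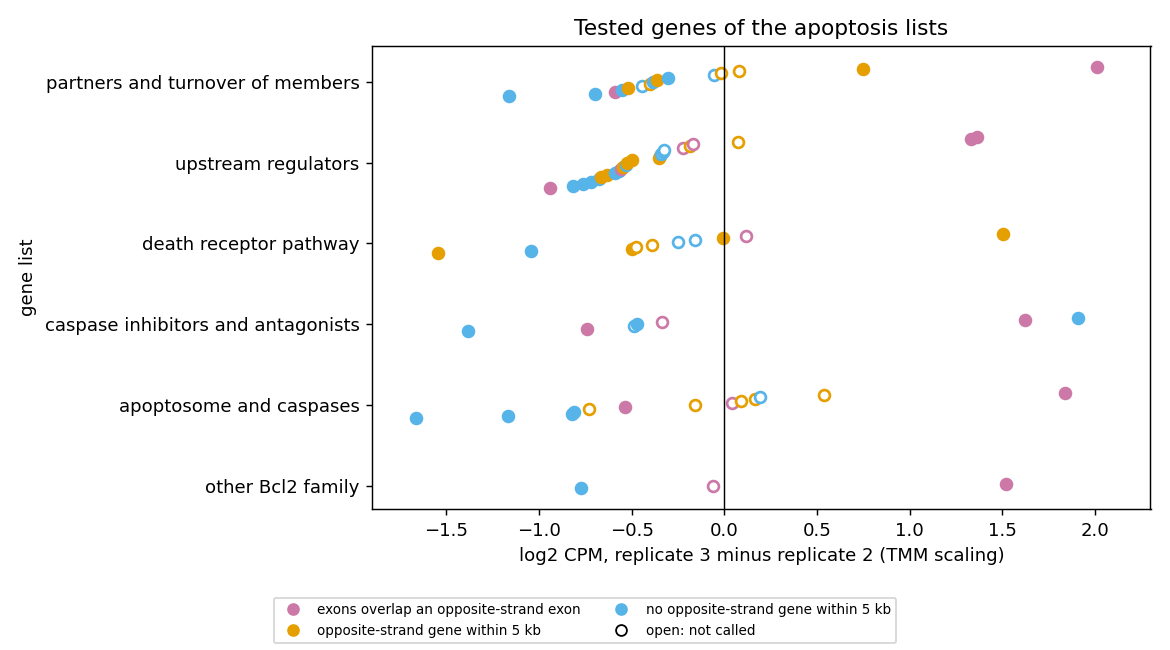
Difference in log2 CPM between replicate 3 and replicate 2 (TMM scaling) for each tested gene of the 6 pathway lists, coloured by opposite-strand annotation, with filled points for genes called as varying. Upstream regulators gather below 0, around a median of -0.53, with Ddit3 and Gsk3a apart on the right.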

How the data were processed

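RNA-seq counts of 3 libraries (labelled total RNA) were analysed. The authors deposited raw counts per gene made with featureCounts 1.4.6-p4 (strand setting 1, paired fragments with both ends mapped, GENCODE M13), per the file headers, on assembly mm10, per the labels. The library kit and the aligner's version are not given in the sources used here. Gene identifiers were named with GENCODE M21 (50376 of 50600). TPM were computed here from counts and exonic length, and log2 ratios used a pseudocount of 0.1 TPM. Depth was 2510319 to 4305077 counts, and intervals (95%, Clopper-Pearson) cover counting error only. Scaling used TMM in edgeR 4.0.16 over the 10662 genes kept by filterByExpr, with DESeq2 1.42.0 size factors, total counts and TMM over genes without a near opposite-strand gene as alternatives. Variation between libraries was tested with a chi-square test of Poisson counts (2 degrees of freedom), Benjamini-Hochberg adjusted over all tested genes. It was run on simulated Poisson counts, where 40% of genes changed 1.5-fold and 97% of those changed 3-fold in replicate 3 were called. Such counts hold counting error alone, so this cannot show how the test fares on the real ones. Their spread beyond counting error was 37.5% (from the edgeR common dispersion). Ratios of the chosen pairs within libraries were tested with an exact sign-flip permutation test. The members, lists and tests were chosen with earlier results of these data known. Named genes were all members, the 3 highest genes of each list, genes of the chosen pairs, and genes at 0 where a list held 3 or fewer, and the nearest genes by pattern. Genes called higher in replicate 3 in short lists were named after their values were seen. A planned comparison of protein sequences was not run.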

Additional observations from a re-analysis of the deposited data

How the results depend on the processing

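No paired analysis was possible because the series has 1 group. Of the values that answer a comparison, 71 under alternatives were labelled the same and 11 moved. The same meant within 1 SD for the median member level and within a set fold for counts and percents. For ratios of sums it meant an unchanged sign of the mean. The median member level was 211 TPM, against 19.7, when TPM was taken over the members and the genes farther than 5 kb from the opposite strand's genes, which shrinks the denominator. Without a filter on low counts, 40.1% of genes were called as varying, against 62.4%, and leaving out 1 library gave 28.1 to 60.8%. Members called numbered 2 among genes without exon overlap, where 5 could be tested, beside 52.2% of the 6244 genes tested in that setting. Members called numbered 1 to 6 when 1 library was left out. With genes of exon overlap left out, 5 of 6 members passed 1 TPM (9 of 10 with them), 2 of 11 other family genes (5 of 15) and 4 of 6 caspase inhibitors and antagonists (7 of 9). At 5 TPM in place of 1, the other family had 2 genes, the apoptosome and caspases 5, and the inhibitors and antagonists 3.

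Directions reversed for close pairs. On the CPM scale, which ignores gene length, Bcl2l11/Bbc3 was 1.03 (Bbc3/Bcl2l11 -1.03), Bad/Bcl2 -1.59 and Bax/Bbc3 -0.16. Leaving out 1 library gave -0.012 (without replicate 3) to 0.93 for Bad/Bcl2, -0.13 (without replicate 1) to 0.51 for Bcl2/Bak1, with -0.024 without replicate 2, and -0.068 (without replicate 2) to 0.76 for Bax/Bbc3. Bcl2 between replicates 3 and 2 was 0.19 with TMM factors from those farther genes. Beyond what their construction shows, the cause was not tested. Depth limits Bmf, Bcl2l1 and Pmaip1 most, with 24, 74 and 3 counts in all. Pairs over 3 libraries cannot pass a threshold of 0.05, so their p-values say nothing of stability.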
